A study of Mus musculus with 162 samples.

Results

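The messenger RNA levels of 8 adrenergic receptor genes were followed across 9 organs of fed and fasted mice. They are Adra1a, Adra1b and Adra1d of the alpha1 class, Adra2a, Adra2b and Adra2c of the alpha2 class, and Adrb1 and Adrb3 of the beta class. They were taken from the deposited count table by gene symbol and are 8 of its 53686 genes. The mice were male C57BL/6J aged 8 to 9 weeks, either fed ad libitum (0 h) or fasted for 2, 8, 12, 18 or 22 h with water available, with 3 mice at each time and 18 in all. All were killed at about the same clock time, after the lights went off, so that each fast began at another time of day. Each mouse gave olfactory bulb (OB), telencephalon with diencephalon (BRN), cerebellum (CBL), midbrain with pons and medulla (BST), stomach (STM), liver (LIV), brown fat from between the shoulder blades (iBAT), perigonadal white fat (pgWAT) and posterior subcutaneous white fat (psWAT). RNA of pgWAT and psWAT was extracted with another kit than RNA of the other organs, so extraction and tissue cannot be told apart where white fat is compared with another organ.

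Adrenergic receptors are G protein-coupled receptors for noradrenaline, which sympathetic nerves and brainstem neurons release, and for adrenaline from the adrenal medulla. Alpha1 receptors act through Gq, phospholipase C and calcium, alpha2 receptors through Gi and lower cAMP, and beta receptors through Gs, adenylyl cyclase and higher cAMP. In fasting, noradrenaline acts on fat cells, where beta receptors stimulate lipolysis and, in brown fat, heat production, and on hepatocytes, where it stimulates glycogen breakdown.

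The libraries that the study left out for low totals were left out here too. There were 5, each with a total below all those kept in its organ. The libraries used were 18 each of OB, CBL, BST, LIV and pgWAT, 17 each of STM, iBAT and psWAT, and 16 of BRN, and they held 3045845 to 27801717 counts, with a median of 8735554. Levels are given as normalized CPM, CPM being the count of a gene relative to a library total scaled by TMM factors over all organs, with the mean and SD over libraries. Of the 72 pairs of a receptor and an organ, 56 passed the filter on low counts that preceded the tests over time. Adra1a, Adrb1 and Adrb3 passed it in 8 organs each, Adra1b, Adra1d and Adra2a in 7, Adra2b in 6 and Adra2c in 5. Both left-out BRN libraries held 0 counts of all 8 receptors, whereas the left-out iBAT library held 439 counts of Adrb3 and 6 of Adra1d, the left-out psWAT library 290 of Adrb3 and the left-out STM library 17 of Adra2b.

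The organ labels were checked against summed normalized CPM of marker genes. The olfactory bulb list summed to at least 1334 in every OB library and to at most 459 elsewhere, the forebrain list to at least 383 in BRN and at most 191.2 elsewhere, and the brainstem list to at least 339.9 in BST and at most 64.2 elsewhere. The stomach list summed to at least 11077 in STM and at most 226 elsewhere, and the brown adipocyte list to at least 5786 in iBAT and at most 1232 elsewhere. The cerebellum list summed to at least 3093 in CBL and, in 1 psWAT library, to 2175. The hepatocyte list summed to at least 117300.0 in LIV and to at most 10955 elsewhere, in a pgWAT library, where Cyp2e1 was its most abundant gene. The adipocyte list had medians of 13544 in pgWAT, 4443 in iBAT and 992 in psWAT, and of at most 25.7 in the other organs. The neuron list had medians of 3426 in BRN to 5789 in BST over the 4 brain organs and at most 46.5 elsewhere, and the astrocyte list 981 in BRN to 1775 in CBL, with 1719 in LIV, where Aldh1l1 was its most abundant gene.

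Markers of other cell types differed between organs and between libraries. The lymphocyte list had a median of 1077 in psWAT and at most 9.53 in the other organs, and the preadipocyte and fibroblast list 2109 in pgWAT against 503 in psWAT and 441 in iBAT. The skeletal muscle list ran from 11.1 to 22385 over psWAT libraries and from 45.9 to 13469 over iBAT libraries. Smooth muscle and keratinocyte lists were highest in STM, with medians of 9045 and 6011, the endothelial list in iBAT, with 741, and the red cell list in LIV, with 715. The pancreas acinar list had medians of at most 15.6, reached in BRN, but summed to 297 in 1 STM library and 291 in 1 psWAT library. The noradrenergic neuron list had a median of 71.3 in BST and of 216 in OB, where the sum without Th was 0.547.

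In 4 libraries the profile was nearer to the mean of another organ. Some results that rest on them are also given without them, but the shares per kilobase and the r of single genes with a receptor are not. In psWAT 12 h replicate 3 the cerebellum list summed to 2175 and the neuron list to 2686. In pgWAT 22 h replicate 2 the adipocyte list summed to 1439, against a median of 13687 in the other pgWAT libraries, the smooth muscle list to 13314 and the epididymis list, led by Crisp1, to 20288. BRN 18 h replicate 2, the smallest library kept, had a neuron sum of 1809.8 against a median of 3426 in the other BRN libraries. BRN 2 h replicate 3 had a cerebellum sum of 35.6, against 24.1, and an endothelial sum of 11.0, against 26.6. Its neuron sum was 3885, against 3426. The forebrain sums were 487 in BRN 18 h replicate 2 and 431 in BRN 2 h replicate 3, against a median of 495.5. A library not among these 4, pgWAT 18 h replicate 3, had an epididymis sum of 21601. In bulk tissue, fewer cells of a type and less RNA per cell cannot be told apart in any of the results that follow.

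Adra1a, a Gq-coupled receptor, was highest in brown fat. Its gene, ENSMUSG00000045875.13, lies at chr14:66635251-66771168 on the plus strand of GRCm38. Its 17 iBAT libraries ran from 43.9 to 134.1 normalized CPM with a median of 88.5 (mean 91.8 ± 25.1), 7.11 times the mean of the next organ, OB, at 12.9 ± 5.36. Without TMM scaling the means were 66.13 CPM in iBAT and 15.3 in OB, a smaller fold. BST (7.77 ± 1.33), CBL (5.97 ± 0.974), pgWAT (5.79 ± 2.56), psWAT (5.25 ± 5.48), BRN (3.91 ± 2.44) and LIV (3.72 ± 1.48) followed, and STM was lowest at 0.274 ± 0.251. The iBAT range lay above the OB range, and the LIV range above the STM range, in 17 of 17 mice each. All other neighbours in this order overlapped.

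Adra1b, the main alpha1 receptor of rodent hepatocytes, was highest in liver. The gene, ENSMUSG00000050541.14, lies at chr11:43774606-43901210 on the minus strand. The 18 LIV libraries ran from 105.02 to 294 normalized CPM with a median of 152.7 (mean 177 ± 59.9), 12.5 times the mean of BST. Without TMM scaling the means were 110.5 CPM in LIV and 15.6 in BST, a smaller fold. BST (14.1 ± 0.917) and BRN (13.2 ± 3.07) overlapped each other, followed by OB (5.36 ± 0.655) and CBL (3.02 ± 0.447). Levels were 1.48 in pgWAT, 0.633 in STM, 0.518 in psWAT and 0.194 in iBAT. LIV lay above BST, and OB above CBL, in 18 of 18 mice with no overlap of the ranges.

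Adra1d, known from arteries, had its highest means in OB, iBAT and BRN and no count in liver. The gene, ENSMUSG00000027335.9, lies at chr2:131545850-131562283 on the minus strand. OB had 16.9 ± 2.06 normalized CPM (12.9 to 20.1), iBAT 14.5 ± 6.08 (4.49 to 22.7) and BRN 11.5 ± 5.15 (0.278 to 18.6). The OB value was above that of iBAT in 10 of 17 mice and the iBAT value above that of BRN in 8 of 15, so these neighbours do not differ beyond their spread. Without TMM scaling OB had 20.2 CPM, BRN 13.2 and iBAT 10.49, so the nearness of OB and iBAT depends on the scaling. BST had 4.28, pgWAT 3.99, CBL 2.38, psWAT 1.61 and STM 0.276. All 18 LIV libraries had 0 counts of Adra1d. A count of 0 over the summed LIV total of 162443674 allows up to 3 counts, or 0.0185 CPM, against a mean of 20.2 CPM before TMM scaling in OB, at least 1094-fold higher. Such limits cover counting error only. A gene on the other strand that overlaps Adra1d, Gm14285, had mean levels of at most 1.68, reached in BRN.

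Adra2a, a Gi-coupled autoreceptor of noradrenergic neurons that also lies on target cells, was highest in the brain organs. The gene, ENSMUSG00000033717.6, lies at chr19:54044151-54048982 on the plus strand. BST had 28.9 ± 2.78 normalized CPM (23.8 to 34.4), BRN 19.9 ± 5.43, OB 15.0 ± 1.81 and CBL 9.14 ± 1.42. BST was above BRN in 16 of 16 mice, although the ranges overlapped. Outside the brain, psWAT had 5.23 ± 2.98, STM 3.84 ± 1.79, pgWAT 1.18 and iBAT 0.296. In LIV, 14 of 18 libraries had 0 counts and the mean was 0.0535.

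Adra2b, a receptor of blood vessels, was low in all organs but liver and was the only alpha2 gene with counts in all LIV libraries. The gene, ENSMUSG00000058620.5, lies at chr2:127363208-127367221 on the plus strand. LIV had 3.83 ± 1.64 normalized CPM (1.33 to 7.56), above STM (1.19 ± 0.816) in 16 of 17 mice with overlapping ranges. CBL (1.09), iBAT (0.962), BRN (0.930), pgWAT (0.828), OB (0.381), BST (0.213) and psWAT (0.177) were lower.

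Adra2c, the other alpha2 autoreceptor, was highest in BRN. The gene, ENSMUSG00000045318.6, lies at chr5:35278319-35281763 on the plus strand. The 16 BRN libraries ran from 20.01 to 54.7 normalized CPM with a median of 35.1 (mean 36.4 ± 9.70), above the OB range in 16 of 16 mice. OB (10.7 ± 1.79), BST (9.07 ± 1.23) and CBL (8.32 ± 1.51) overlapped. The pgWAT mean was 1.76, with its highest value, 9.28, in the library of 18 h replicate 3 named above. Means were 0.735 in iBAT, 0.509 in psWAT and 0.369 in STM, and LIV held 1 count over its 18 libraries.

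Adrb1, the Gs-coupled receptor that predominates in the heart, was highest in brown fat. The gene, ENSMUSG00000035283.5, lies at chr19:56722199-56733113 on the plus strand. The iBAT libraries ran from 9.86 to 46.9 normalized CPM with a median of 21.3 (mean 22.7 ± 10.0), above BRN (10.9 ± 3.36) in 14 of 15 mice. Then came pgWAT (5.27), OB (5.00), BST (3.01), psWAT (3.01), CBL (2.12), LIV (0.984) and STM (0.799), and all neighbours in this order overlapped.

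Adrb3, the receptor that drives lipolysis and heat production in rodent fat cells, had its highest means in the 3 fat depots. The gene, ENSMUSG00000031489.15, lies at chr8:27225776-27250616 on the minus strand. The 18 pgWAT libraries ran from 52.5 to 1167 normalized CPM with a median of 680.2 (mean 671 ± 234.7), and without 22 h replicate 2, which holds the lowest value, the mean was 708. The 17 iBAT libraries ran from 81.1 to 462 with a median of 172 (mean 186.6 ± 90.8), and the 17 psWAT libraries from 8.53 to 643 with a median of 101.1 (mean 149.6 ± 181). The pgWAT value was above that of iBAT in 16 of 17 mice, and the iBAT value above that of psWAT in 11 of 16. The psWAT value was above that of LIV in 11 of 17 mice, with overlapping ranges. LIV had 48.5 ± 12.8 (32.2 to 75.3), above the STM range (mean 4.15) in 17 of 17 mice. OB (1.66), BRN (1.48), BST (0.587) and CBL (0.252) were lowest. A gene on the other strand that overlaps Adrb3, Gm45470, reached 9.52% of the Adrb3 mean in iBAT and 2.93% in LIV but 244% in BST, so the lowest levels of Adrb3 are near those of its neighbour.

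The order of the organs depended in part on the scaling. Without TMM scaling each receptor was highest in the same organ, but 2 organs changed rank for Adra1b, Adra1d and Adrb3, 4 for Adra2c, 5 for Adra2b and 6 for Adrb1. For Adrb3, psWAT (184 CPM) then lay above iBAT (134.3). Without the libraries nearer to another organ, 2 organs changed rank for Adra1a and 2 for Adra2b.

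**Figure D1:**
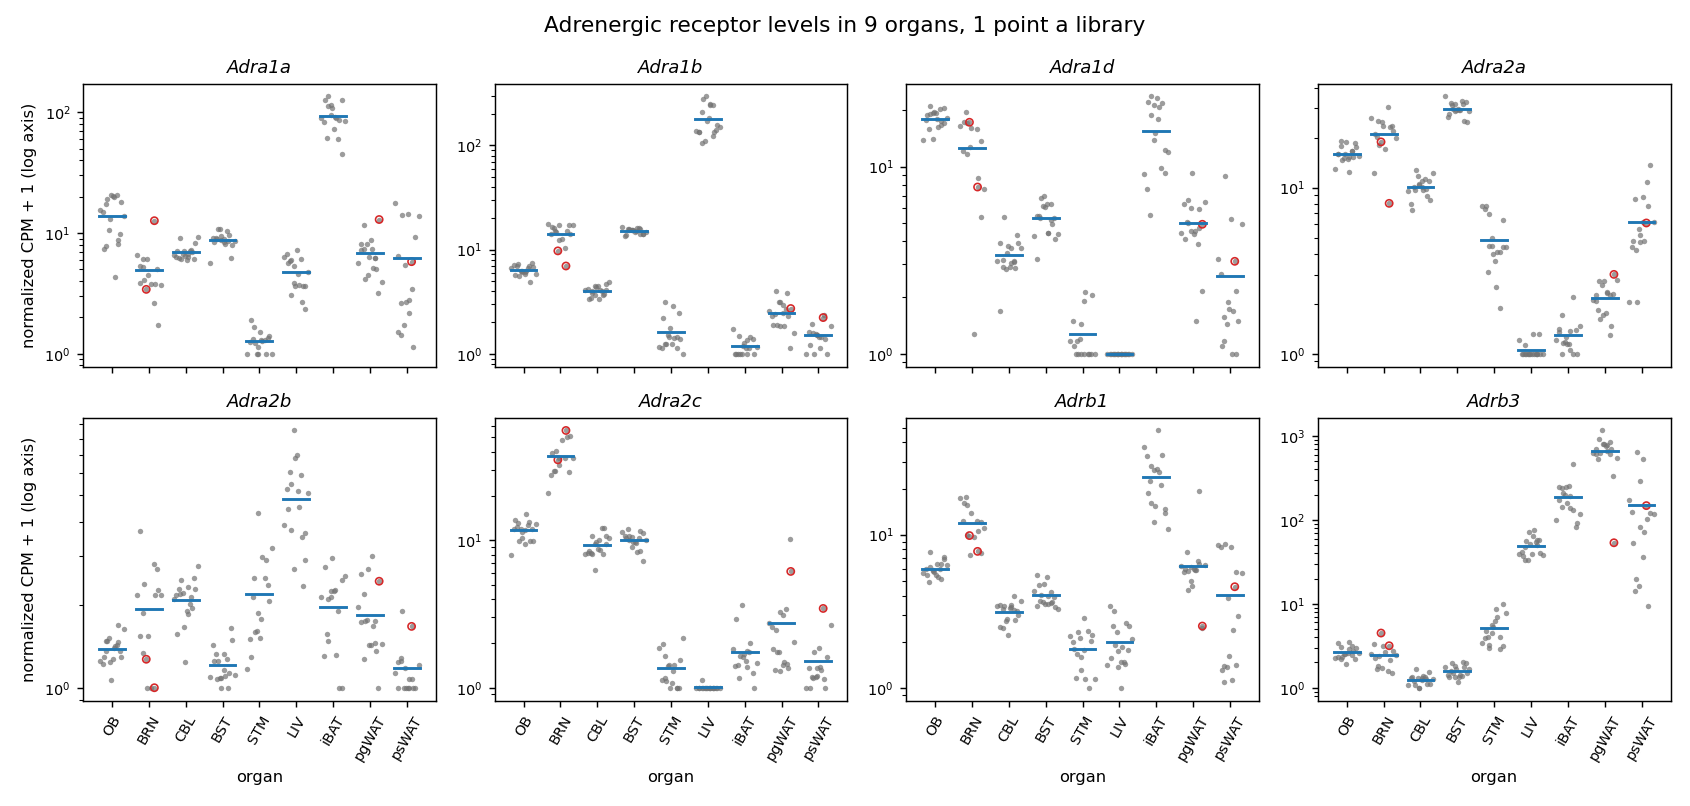
Normalized CPM of each of the 8 receptors in every library, by organ, on a log axis of CPM plus 1. Points are libraries, the blue line is the mean, and red circles mark the 4 libraries nearer to another organ; Adrb3 in pgWAT has the highest mean, 671.

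Levels of different genes were compared per kilobase of the exons, as shares of the summed CPM per kilobase of the 8 receptors. In the fat depots most of the sum was Adrb3. Its mean share was 95.8% in pgWAT (70.0 to 98.7 over libraries), 85.6% in psWAT (60.4 to 96.7) and 66.2% in iBAT (49.3 to 88.3). In iBAT the rest was mainly Adra1a (14.2%), Adra1d (9.93%) and Adrb1 (8.85%), and in psWAT Adra2a (7.58%, 0.109 to 33.6 over libraries). With the longest transcript in place of all exons as the length, the iBAT shares were 22.1% for Adra1a, 7.82% for Adrb1 and 7.63% for Adra1d. In LIV, Adra1b made up 75.9% (68.5 to 81.8) and Adrb3 21.5% (16.2 to 29.5).

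The brain organs differed in their leading receptor. Adra1d led in OB with 43.96%, and Adra2c led in BRN with 36.997% (19.2 to 59.6) and in CBL with 29.8%. Adra2a led in BST with 35.1%, before Adra1b with 24.6%. In STM, Adrb3 had 39.3% and Adra2a 27.3% of a sum of 3.03 CPM per kilobase, against sums of 205 in pgWAT, 80.7 in iBAT, 68.4 in LIV, 48.1 in psWAT, 29.01 in BRN and 20.3 in OB. By class, alpha2 receptors made up 51.9% in BRN, 56.5% in CBL and 50.8% in BST, alpha1 receptors 59.04% in OB and 76.6% in LIV, and beta receptors 75.1% in iBAT, 96.6% in pgWAT and 87.6% in psWAT. With the longest transcript as the length, 8 of the 72 shares moved by more than their SD, and the leading receptor of each organ was the same.

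**Figure D2:**
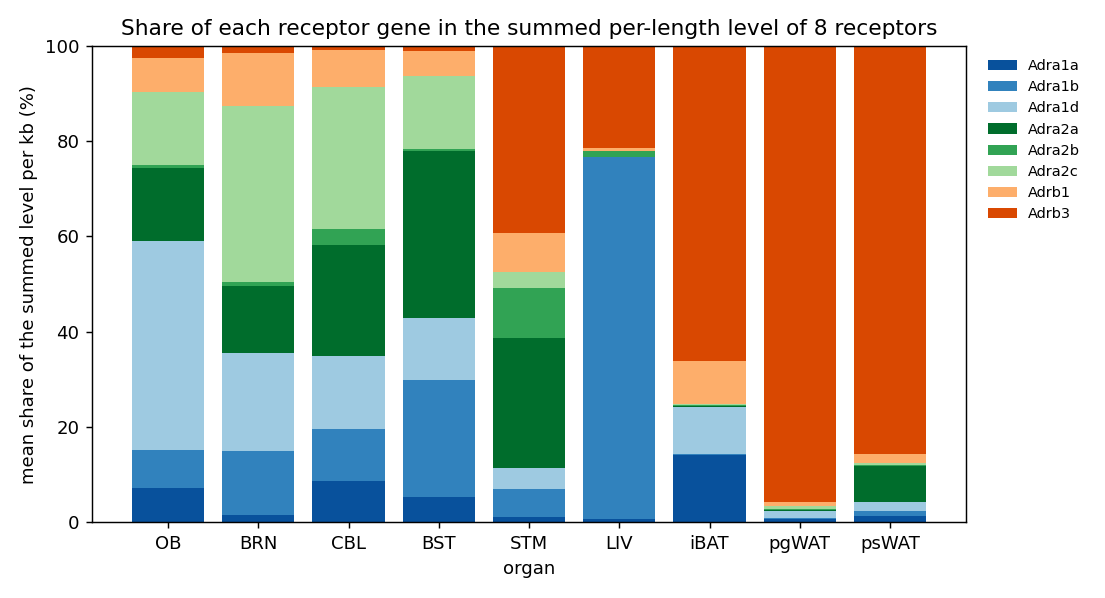
Stacked bars of the mean share (percent) of each receptor in the summed CPM per kilobase of the 8 receptors, for the 9 organs. Adrb3 fills 95.8% of the pgWAT bar and Adra1b 75.9% of the LIV bar.

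The fat depots were compared with each other over all times, to ask how receptor expression differs between brown and white fat. Against pgWAT, brown fat had higher Adra1a, Adra1d and Adrb1 and lower Adrb3, Adra1b, Adra2a and Adra2c, 7 of the 8 receptors, where 68.2% of all genes tested were called at an adjusted p under 0.05. Adra1a had a log2 fold change of 3.97 (SE 0.263, adjusted p = 2.13e-30) and was higher in iBAT in 17 of 17 mice, and Adrb1 one of 2.08 (SE 0.253, adjusted p = 5.69e-13), also in 17 of 17. Adrb3 was lower in iBAT by a log2 fold change of -1.89 (SE 0.252, adjusted p = 2.48e-11), in 16 of 17 mice. Adra1d was higher by 1.82 in 17 of 17 mice, and Adra2a and Adra1b differed by -1.97 and -2.74 and were lower in 17 and 16 of 17. Adra2c differed by -1.20 (adjusted p = 0.000222) with 10 of 17 mice lower, but without replicate 2 by -0.70 (adjusted p = 0.146, range 3.01e-05 to 0.146 over the left-out replicates). The 2 highest pgWAT values of Adra2c, 9.28 and 5.16, were in 18 h replicate 3 and 22 h replicate 2, with epididymis sums of 21601 and 20288, and the part of these in the comparisons of Adra2c with pgWAT was not tested. Adra2b was not called (log2 fold change 0.22, adjusted p = 0.575, higher in 10 of 17 mice, range over alternatives 0.00924 to 0.944), except without replicate 2 (1.12, adjusted p = 0.00924). Leaving out a replicate number here removes that number from every organ and time.

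Against psWAT, brown fat had higher Adra1a, Adra1d, Adra2b and Adrb1 and lower Adra1b and Adra2a, 6 of the 8 receptors, where 75.9% of all genes were called. Adra1a had a log2 fold change of 4.23, Adra1d of 3.30 and Adrb1 of 3.00 (adjusted p = 2.86e-31, 1.15e-18 and 2.90e-20), each higher in iBAT in 16 of 16 mice. Adra2a had one of -4.12 (adjusted p = 8.51e-34) and was lower in 16 of 16. Adra2b differed by 2.44, higher in 15 of 16 mice, and Adra1b by -1.28, lower in 13 of 16. Adrb3 was not called, with a log2 fold change of 0.51 (SE 0.254, adjusted p = 0.0606, range over alternatives 6.41e-05 to 0.247) and 11 of 16 mice higher in iBAT. It was called with all libraries (0.60, adjusted p = 0.0252), without the libraries nearer to another organ (0.55, 0.0337), paired by animal (0.55, 0.0472) and by limma voom (1.13, 6.41e-05). Adra2c was not called either (0.64, adjusted p = 0.0865, higher in 9 of 16 mice, range 0.00065 to 0.892), but was called without the libraries nearer to another organ (1.11, 0.00301), without replicate 3 (1.56, 0.00065) and by limma voom (0.95, 0.00356).

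Between the white depots, pgWAT had higher levels of 6 receptors and a lower level of Adra2a, 7 of 8, where 74.9% of all genes were called. Adrb3 was higher in pgWAT by a log2 fold change of 2.40 (SE 0.264, adjusted p = 3.58e-15) in 16 of 17 mice, and Adra2a, which opposes lipolysis through Gi, was lower by -2.14 (SE 0.199, adjusted p = 2.27e-19) in 16 of 17. Adra1b, Adra1d, Adra2b, Adra2c and Adrb1 were higher by 1.46, 1.48, 2.22, 1.84 and 0.93, in 16, 14, 13, 14 and 12 of 17 mice. Adra1a was not called (0.26, adjusted p = 0.359, higher in 11 of 17 mice, range 0.000134 to 0.817), though limma voom called it (1.12, 0.000134). The depots also differed in markers, with adipocyte medians of 13544 in pgWAT and 992 in psWAT and lymphocyte medians of 8.61 in pgWAT and 1077 in psWAT. Per 1000 normalized CPM of adipocyte markers the median Adrb3 level was lower in pgWAT (49.7) than in psWAT (81.3), the opposite order. The part of these markers in the other receptor differences was not tested.

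The brain organs were compared with BRN. OB had higher Adra1a and lower Adra1b, Adra2a, Adra2b, Adra2c and Adrb1, 6 of 8 receptors with 57.4% of all genes called. Adra1a differed by a log2 fold change of 1.73 (SE 0.263, adjusted p = 4.70e-09), higher in 15 of 16 mice, and Adra2c by -1.75 (SE 0.235, adjusted p = 5.84e-11), lower in 16 of 16. Adra1b and Adrb1 differed by -1.32 and -1.12 and were lower in 16 of 16 mice each, and Adra2b by -1.25, lower in 11 of 16. Adra2a differed by -0.39 (adjusted p = 0.0422, lower in 14 of 16 mice), a call that ended with all libraries (-0.28, 0.21), paired by animal (-0.36, 0.0664), with no filter on low counts (-0.37, 0.0785), without replicate 1 (-0.30, 0.252) and without replicate 3 (-0.36, 0.143). Its range was 0.00453 to 0.21 over settings and 0.0217 to 0.252 over left-out replicates. Adra1d was not called (0.53, adjusted p = 0.0827, higher in 14 of 16 mice, range 0.00594 to 0.552), but was called with all libraries (0.65, 0.0413) and by limma voom (0.67, 0.00594), and Adrb3 was not called (0.13, adjusted p = 0.757, higher in 11 of 16).

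CBL had higher Adra1a and lower levels of 6 other receptors than BRN, 7 of 8 with 62.1% of all genes called. Adra2c differed by a log2 fold change of -2.12 (SE 0.238, adjusted p = 1.72e-14), Adra1b by -2.14 and Adrb1 by -2.39, each lower in 16 of 16 mice. Adra1d, Adra2a and Adrb3 differed by -2.30, -1.11 and -2.56 and were lower in 15 of 16. Adra1a differed by 0.64 (adjusted p = 0.0264, higher in 14 of 16 mice), a call that ended with RLE size factors (0.55, 0.0622) and without replicate 1, 2 or 3 (0.0625, 0.0628 and 0.13), with a range of 0.00455 to 0.0622 over settings. Adra2b was not called (0.25, adjusted p = 0.532, higher in 10 of 16).

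BST had higher Adra1a and Adra2a and lower levels of 5 receptors than BRN, 7 of 8 with 57.9% of all genes called. Adra2a, highest in the organ that holds the noradrenergic cell groups, differed by a log2 fold change of 0.55 (SE 0.173, adjusted p = 0.00393), higher in 16 of 16 mice, but without replicate 2 by 0.45 (adjusted p = 0.058, range 0.0124 to 0.058 over left-out replicates). Adra1a differed by 1.012 (adjusted p = 0.000432), higher in 14 of 16. Adra2c differed by -1.97 (SE 0.237, adjusted p = 6.41e-13) and Adrb1 by -1.89, each lower in 16 of 16 mice, Adra1d by -1.48, lower in 15 of 16, and Adra2b by -2.07, lower in 13 of 16. Adrb3 differed by -1.37 (adjusted p = 0.000626, lower in 14 of 16), but not by limma voom (-1.28, adjusted p = 0.0729, range 0.000396 to 0.0729 over settings). Adra1b was not called (0.08, adjusted p = 0.725, higher in 9 of 16 mice).

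LIV was compared with the mean of the 8 other organs on the log scale, and all 8 receptors were called, where 79% of all genes were. Adra1b was higher by a log2 fold change of 6.39 (SE 0.096, adjusted p = 4.86e-110) and Adra2b by 2.66 (SE 0.200, adjusted p = 1.50e-26), each in 18 of 18 mice. Adrb3 was higher by 2.51 (SE 0.162, adjusted p = 4.88e-32) on the log scale, yet in 17 of 18 mice its LIV level was below the arithmetic mean of the other organs (127). Adra2a and Adrb1 were lower by -6.19 and -2.05 in 18 of 18 mice. Adra1a was lower by -0.74 (adjusted p = 0.00105), in 18 of 18 mice against the arithmetic mean, but without replicate 2 by -0.54 (adjusted p = 0.0623, range 0.00368 to 0.0623 over left-out replicates). Adra1d and Adra2c, with 0 and 1 counts in LIV, were called lower and no fold is given for them.

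STM, compared in the same way, had higher Adra2b and lower levels of 5 receptors, 6 of the 7 that could be tested, where 71.1% of all genes were called. Adra1a was lower by a log2 fold change of -4.74 (SE 0.320, adjusted p = 4.32e-30), Adra1b by -2.75, Adrb1 by -2.40 and Adrb3 by -1.46, each in 17 of 17 mice. Adra2b was higher by 0.79 (adjusted p = 0.00189), with 9 of 17 mice above the arithmetic mean, but without replicate 1 by 0.64 (adjusted p = 0.0551, range 0.00373 to 0.0551 over left-out replicates). Adra2c was called lower (adjusted p = 0.000202, lower in 17 of 17 mice, range over settings 1.07e-25 to 0.000826). The mean of the other organs includes LIV, whose only Adra2c count is in 2 h replicate 2, so no fold is given. Without replicate 2 LIV held 0 counts, and this contrast gave no usable test in edgeR. The lowest adjusted p of Adra2c over left-out replicates was 6.70e-05. For Adra1d this contrast gave no usable test in edgeR, and limma voom gave -4.03 (adjusted p = 5.75e-29, range over alternatives 5.75e-29 to 1). Adra2a was not called (0.29, adjusted p = 0.0542, below the arithmetic mean in 17 of 17 mice, range 0.00793 to 0.671), but was called with RLE size factors (0.34, 0.0217), without the libraries nearer to another organ (0.29, 0.0451), paired by animal (0.30, 0.0451) and without replicate 3 (0.51, 0.00793).

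Fasting was tested in each organ in 2 ways: a joint test for any difference among the 6 times, and late (18 and 22 h) against early (0 and 2 h). Among the receptors that passed the filter, the joint test called Adra1d in iBAT and Adra1b and Adrb3 in LIV. Late against early called Adra2c in BRN, Adrb3 in LIV and Adrb3 in iBAT, 1 receptor in each of these organs. Adrb3 was called in opposite directions in LIV and iBAT, and the difference between these organs was not tested. In LIV, OB and STM all libraries of 0 and 2 h were in another sequencing lane than all of 12, 18 and 22 h, and in pgWAT no late library shared a lane with an early one. In these organs lane and late against early cannot be told apart except through the times between.

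In brown fat, the joint test called 1 of the 5 receptors tested, Adra1d, where 29% of all genes were called. In normalized CPM, Adra1d stood at 8.17, 6.58 and 4.49 in the fed mice, at 21.1, 17.9 and 12.9 after 2 h, at 22.7, 20.4 and 22.2 after 8 h, at 14.1, 17.0 and 8.77 after 12 h, at 19.7, 20.97 and 11.2 after 18 h, and at 8.28 and 10.9 after 22 h. All fasted libraries were above the 3 fed ones, and the highest value was at 8 h. Against 0 h the log2 fold change was 1.47 at 2 h (SE 0.307), 1.75 at 8 h (SE 0.305), 1.02 at 12 h, 1.40 at 18 h and 0.65 at 22 h (SE 0.352), and the joint adjusted p was 0.00468 with 14 of 14 fasted libraries above the fed ones. The libraries were spread over sequencing lanes. In lane 5 the fed library had 4.49 and the 6 fasted ones 11.2 to 22.7, and in lane 8 the fed libraries had 8.17 and 6.58 and the 3 fasted ones 19.7 to 22.2. Late against early did not call Adra1d (0.29, adjusted p = 0.336, 0 of 5 late libraries above all early ones, range 0.0199 to 0.768) with 2 h counted as early, and 18 and 22 h against 0 h alone gave 1.03 (adjusted p = 0.0199).

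Late against early called 1 of the 5 in brown fat as well, Adrb3, where 36% of all genes were called. Adrb3 had 98.0, 247 and 142.6 normalized CPM at 0 h, 172, 237 and 195.5 at 2 h, 211, 246 and 252 at 8 h, 156.5, 192.3 and 462 at 12 h, 137.9, 131.2 and 81.1 at 18 h, and 90.7 and 118.3 at 22 h. All 5 late libraries were below 5 of the 6 early ones and 2 of 5 below all early ones, and the ranges overlapped. The mean was 182 ± 56.9 early (n = 6) and 111.8 ± 24.9 late (n = 5), a log2 fold change of -0.72 (SE 0.276, 95% interval -1.28 to -0.17, adjusted p = 0.0498). The call was kept by DESeq2 (0.0281), with the replicate block (0.0347) and without 0 h replicate 1 (0.0185), 12 h replicate 1 (0.0319) or 12 h replicate 3 (0.0143), and ended without any other 1 of the 17 libraries (0.0525 to 0.161) and with RLE size factors (0.0553), no filter (0.114), all libraries (0.174), 18 and 22 h against 0 h (0.228) or a slope on hours (0.234). Without 0 h replicate 2 the log2 fold change was -0.51 (adjusted p = 0.14). In lane 8 the early libraries had 98.0 and 247 and the late one 137.9, and in lane 5 the 3 early ones had 142.6 to 237 and the late one 81.1. The other 3 late libraries were in lanes 1, 2 and 3, which hold no early one, and lane as a term could not be fitted in iBAT.

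Marker sums moved over the same times in brown fat. The adipocyte list, led by Cidec, rose from a mean of 3999 early (3640 to 4320) to 5832 late (5098 to 6582), with 3 of 5 genes called higher and none at 0 in all libraries. The endothelial list, led by Cdh5, went from 894 to 555 with 4 of 5 genes called lower, and the red cell list from 274 to 531 with 2 of 5 called higher. The library with the highest Adrb3, 12 h replicate 3 at 462, also had the highest skeletal muscle sum, 13469. The part of these in the Adrb3 and Adra1d results was not tested. Of the other receptors in brown fat, the joint test gave Adrb3 an adjusted p of 0.0575 (range 0.011 to 0.171), Adra1a of 0.112 (0.0449 to 0.281) and Adrb1 of 0.133 (0.0257 to 0.301).

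In liver, the joint test called Adra1b and Adrb3, 2 of the 4 receptors tested, where 16% of all genes were called. Adra1b had 137.7, 132.8 and 208 normalized CPM at 0 h, 133.99, 105.02 and 110.2 at 2 h, 276, 294 and 181 at 8 h, 169.9, 248 and 246 at 12 h, 243, 123.4 and 139.8 at 18 h, and 133.5, 156.3 and 149.2 at 22 h. The highest values were at 8 and 12 h, the lowest 2 values at 2 h, and those at 22 h lay within the fed range. Against 0 h the log2 fold changes were -0.47, 0.61, 0.45, 0.07 and -0.13 at 2, 8, 12, 18 and 22 h, with a joint adjusted p of 0.0423 and 4 of 6 libraries of 8 and 12 h above all 3 fed ones.

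Adrb3 in liver had 38.8, 40.5 and 46.1 normalized CPM at 0 h, 36.2, 32.2 and 32.6 at 2 h, 54.7, 70.4 and 38.04 at 8 h, 50.9, 63.6 and 53.95 at 12 h, 75.3, 48.99 and 56.3 at 18 h, and 57.3, 39.3 and 37.03 at 22 h. All 12 h and 18 h libraries were above the fed ones, and those of 22 h lay below, within and above the fed range. The joint adjusted p was 0.0358, with log2 fold changes against 0 h of -0.33, 0.34, 0.41, 0.52 and 0.09. Late against early called Adrb3 as 1 of the 4, where 15% of all genes were called: the mean was 37.7 ± 5.26 early and 52.4 ± 14.0 late (n = 6 each), a log2 fold change of 0.47 (SE 0.141, 95% interval 0.19 to 0.76, adjusted p = 0.0286), with 4 of 6 late libraries above all early ones. Adra1b was not called in this contrast (0.21, adjusted p = 0.457, 1 of 6 late libraries above all early ones).

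The liver calls were close to the threshold. Adra1b in the joint test was lost without 11 of 18 libraries taken 1 at a time, namely 0 h replicates 1 and 2, 2 h replicates 2 and 3, 8 h replicates 1 and 2, 12 h replicates 2 and 3 and the 3 of 22 h (adjusted p 0.0593 to 0.108), and kept without the others (0.00656 at the lowest). Adrb3 in the joint test was lost without 0 h replicates 1 and 2, any of 2 h, 8 h replicate 1, 12 h replicates 2 and 3 or 22 h replicate 2 (0.0505 to 0.106). Adrb3 in late against early was lost without 0 h replicates 1 and 2, 2 h replicates 2 and 3, 18 h replicate 1 or 22 h replicate 1 (0.0577 to 0.0849), and also with 18 and 22 h against 0 h alone (0.31, adjusted p = 0.271, range over settings 0.00171 to 0.271) and with a slope on hours (0.176). All libraries of 0 and 2 h and replicates 1 and 2 of 8 h were sequenced in lane 1, and 8 h replicate 3 and all later ones in lane 2, so in liver lane and late against early cannot be told apart except through 8 h. At 8 h, Adrb3 had 54.7 and 70.4 in lane 1 and 38.04 in lane 2, and with lane as a term late against early gave 1.16 (adjusted p = 0.0996) for Adrb3. With that term the joint adjusted p was 0.0561 for Adra1b and 0.0504 for Adrb3. With the replicate block Adra1b was lost (0.0763) and Adrb3 kept (0.0439).

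Fat and liver markers were read beside the liver results. The adipocyte list summed to 2.65 to 15.0 in LIV, led by Cidec, beside a mean of 48.5 for Adrb3, and the brown adipocyte list to a median of 518, led by Cpn2 with a mean of 363 and with 1 of its 5 genes at 0 in all LIV libraries. The hepatocyte list had means of 136930.0 early and 137310.0 late. Of the 2 other receptors tested in LIV, Adra2b had a joint adjusted p of 0.0664 (range 0.0241 to 0.167). Adra1a had means of 4.23 early and 2.46 late, a log2 fold change of -0.71 that was not called (adjusted p = 0.0932, range 0.0378 to 0.345, 2 of 6 late libraries below all early ones). It was called with 18 and 22 h against 0 h alone (-1.10, adjusted p = 0.0378), where Adrb3 was not.

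In BRN the joint test called 0 of the 8 receptors in edgeR (0 at an unadjusted p under 0.05, and 0 in DESeq2), where 0.00597% of all genes were called, a single gene, against 9.80% by DESeq2. Late against early called 1 of 8, Adra2c, where 7.43% of all genes were called. Adra2c had 20.01, 26.8 and 28.4 normalized CPM at 0 h, 38.4, 28.8 and 34.2 at 2 h, 39.3 and 35.3 at 8 h, 31.6, 47.2 and 35.005 at 12 h, 54.7 and 28.1 at 18 h, and 49.5, 50.3 and 35.3 at 22 h. The ranges overlapped, with 3 of 5 late libraries above all early ones and 1, 18 h replicate 3, within the fed range. The mean was 29.4 ± 6.32 early (n = 6) and 43.6 ± 11.3 late (n = 5), a log2 fold change of 0.71 (SE 0.215, 95% interval 0.28 to 1.15, adjusted p = 0.0495).

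This BRN call held in 4 of 9 settings, namely DESeq2 (0.0228), no filter on low counts (0.00559), 18 and 22 h against 0 h (0.0328) and a slope on hours (0.0455). Without the libraries nearer to another organ, which hold the highest late value (54.7, 18 h replicate 2), the log2 fold change of Adra2c was 0.38 (adjusted p = 0.42, range over settings 0.00559 to 0.664), and without 18 h replicate 2 alone it was 0.36 (adjusted p = 0.364). The call was kept without 12 h replicate 2 (0.0277), 18 h replicate 3 (0.0021) or 22 h replicate 3 (0.018), and lost without any other 1 of the 16 libraries (0.0521 to 0.364), and without 18 h replicate 3 the joint test called Adra2c too (0.0298). It was also lost with RLE size factors (0.0518), all libraries (0.664), the replicate block (0.0532) and lane as a term (0.386). The neuron list went from a mean of 3741 early to 2864 late with 0 of its 5 genes called by edgeR, and its part in the Adra2c result was not tested.

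Other receptors in BRN had large differences that were not called. Adra1d had means of 15.6 ± 2.48 early and 7.61 ± 3.09 late, with 4 of 5 late libraries below all early ones and 7.66, 4.39 and 6.55 in the 22 h libraries. Its log2 fold change was -0.89 (SE 0.426, adjusted p = 0.186, range 0.0174 to 0.539), and it was called with no filter on low counts (0.0387) and without 12 h replicate 2 (0.0174), a library with 0.278 normalized CPM. Adrb1 had means of 13.8 and 8.79, a log2 fold change of -0.52 (adjusted p = 0.166, range 0.0654 to 0.51, 2 of 5 late libraries below all early ones).

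**Figure D3:**
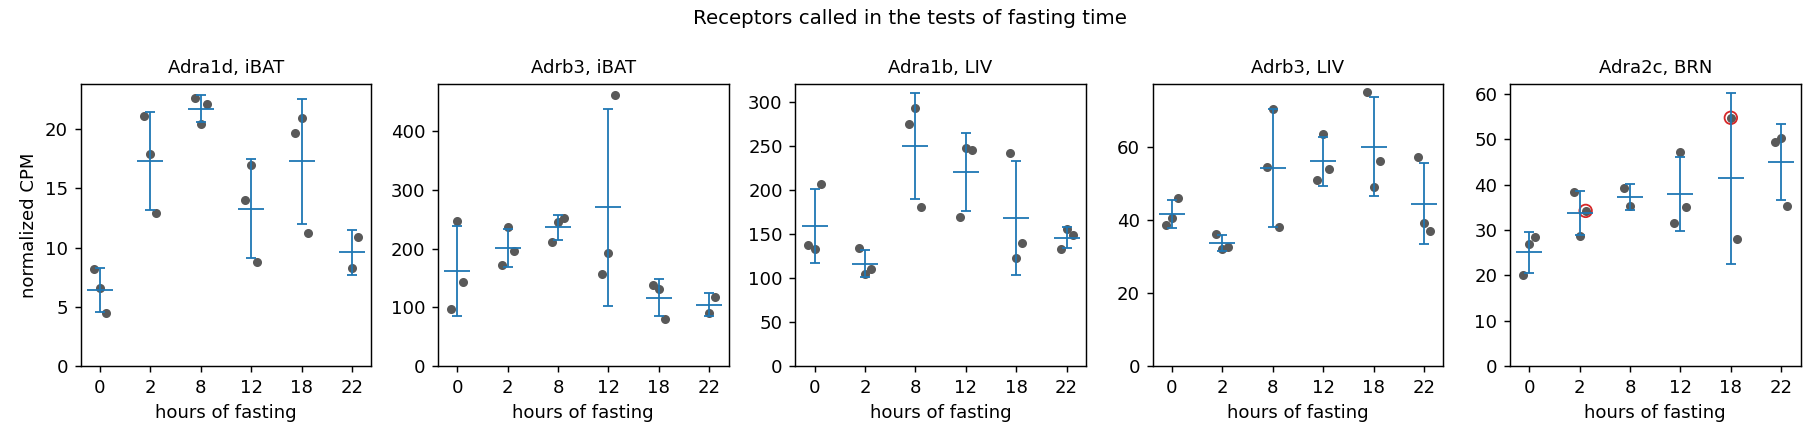
Normalized CPM against hours of fasting for Adra1d and Adrb3 in iBAT, Adra1b and Adrb3 in LIV and Adra2c in BRN. Points are libraries, lines and bars are the mean ± SD at each time, and red circles mark libraries nearer to another organ; the fed iBAT libraries have the lowest Adra1d values, 4.49 to 8.17.

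In the other brain organs no receptor was called. In OB the joint test called 0 of 7 receptors in edgeR (1 at an unadjusted p under 0.05, 0 in DESeq2) where 15.4% of all genes were called, and late against early 0 of 7 (0 unadjusted, 0 in DESeq2) where 4.87% were. Adra1a in OB had 19.7, 18.8 and 19.6 normalized CPM at 12 h and 3.36, 7.78 and 8.83 at 18 h, with a joint adjusted p of 0.143 (range 6.09e-23 to 0.307, the lowest with no filter on low counts, the only setting that called it). In CBL both tests called 0 of 7 in edgeR (0 unadjusted and 0 in DESeq2 for each), where 2.99% of all genes were called in the joint test and 2.48% in late against early. The late log2 fold changes of the 7 receptors in CBL were all positive, 0.08 to 0.38 with a median of 0.25, against a median of -0.01 over all genes. The fed CBL libraries held 20396385 to 22071004 counts and the fasted ones 6487419 to 9487976. Depth and the fed state cannot be told apart in CBL. In BST both tests called 0 of 7 in edgeR (2 and 0 unadjusted, 0 and 0 in DESeq2), where 0.107% and 0.0775% of all genes were called. The late log2 fold changes in BST lay between -0.22 and 0.18, 1 positive and 6 negative, with a median of -0.056 against 0.0007 over all genes. DESeq2 called 23.9%, 14.1% and 1.34% of all genes in the joint test in OB, CBL and BST, and 9.36%, 5.54% and 0.414% in late against early.

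In stomach the joint test called 0 of the 5 receptors tested in edgeR (0 at an unadjusted p under 0.05, 0 in DESeq2), where 6.55% of all genes were called, and late against early 0 of 5 (2 unadjusted, 0 in DESeq2), where 22.7% were, against 17.2% and 27.4% by DESeq2. Adra2b had means of 0.702 ± 0.514 early and 1.67 ± 0.436 late, a log2 fold change of 1.26 (SE 0.530, adjusted p = 0.0951, range 0.0496 to 0.933) with 3 of 6 late libraries above all early ones. It was called without 2 h replicate 2 alone (1.67, adjusted p = 0.0496). Adra2a had means of 5.31 and 3.20, a log2 fold change of -0.73 (adjusted p = 0.132, range 0.0622 to 0.985, 1 of 6 late libraries below all early ones).

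In white fat, edgeR called few genes of any kind, and DESeq2 called 3.57% of all genes in the pgWAT joint test, 4.72% in pgWAT late against early, 12.6% in the psWAT joint test and 0.275% in psWAT late against early. In pgWAT the joint test called 0 of 8 receptors in edgeR (0 unadjusted, 0 in DESeq2), where 0% of all genes were called, and late against early 0 of 8 (0 unadjusted, 0 in DESeq2), where 0.00609% were. Adrb3 in pgWAT had 630.0, 695 and 535 normalized CPM at 0 h and 698, 52.5 and 545 at 22 h, the lowest in 1 of the libraries with epididymis markers. The library with the highest epididymis sum, 18 h replicate 3, had 331. In psWAT the joint test called 0 of 5 receptors in edgeR (1 unadjusted, and 1 in DESeq2, Adrb3), where 0% of all genes were called, and late against early 0 of 5 (0 unadjusted, 0 in DESeq2), where 0% were. Adrb3 in psWAT had 174, 124.5 and 13.4 at 0 h, 52.0, 18.8 and 15.3 at 2 h, 643, 288 and 532 at 8 h, 81.02, 35.02 and 147.3 at 12 h, 71.03, 101.1 and 119.8 at 18 h, and 8.53 and 117.3 at 22 h. All 8 h libraries were above all others, with a log2 fold change against 0 h of 2.20 (SE 0.963) and a joint adjusted p of 0.169 (range 0.00309 in DESeq2 to 0.541). The late log2 fold changes of the 5 receptors in psWAT were all positive, 0.55 to 1.31 with a median of 1.04 against 0.04 over all genes, and the smallest adjusted p was 0.777. In pgWAT 2 of the 8 were positive and 6 negative, with a median of -0.43 against 0.05 over all genes. The pgWAT libraries with epididymis sums of 21601 and 20288, 18 h replicate 3 and 22 h replicate 2, are both late. The highest early sum was 2447, and the part of these libraries in the late values was not tested.

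Whether late against early differed between the fat depots was tested directly. edgeR called 0 of 8 receptors for iBAT against pgWAT, iBAT against psWAT and pgWAT against psWAT (0, 2 and 1 at an unadjusted p under 0.05, and no other tool was run), where 0.159%, 4.06% and 0.0273% of all genes were called. The smallest adjusted p of a receptor was 0.343, 0.221 and 0.588 in turn. For Adrb3 the differences of the log2 fold changes were -0.22, -1.27 and -1.05 (SE 0.701, 0.727 and 0.701).

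Adrb3 was then set against the summed level of the 5 adipocyte markers in each fat depot, a relation chosen after its levels were seen. Over the 17 psWAT libraries the log2 values had a Pearson r of 0.925 (permutation p = 1e-05, the smallest that 100000 permutations can give, 3e-05 adjusted over the 3 depots) and a Spearman rho of 0.909 (permutation p = 1e-05). The r was 0.890 without the 2 libraries farthest from the median, 0.937 without the library nearer to another organ, 0.890 within lane 5 (n = 10) and 0.895 within lane 7 (n = 6). The psWAT adipocyte sums ran from 90.5 to 7826, and were 7826, 2679.8 and 6544 at 8 h, the time of the highest Adrb3, against 475, 192.4 and 250.2 at 2 h.

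In pgWAT the relation rested on 1 library. Over 18 libraries r was 0.864 (permutation p = 0.0257, adjusted 0.0385), but rho was 0.0464 (permutation p = 0.857) and r was 0.0145 without the 2 farthest libraries and 0.0209 without 22 h replicate 2. Within lane 5 it was -0.201 (n = 8) and within lane 6, which holds that library, 0.969 (n = 8). In iBAT r was -0.379 over 17 libraries (permutation p = 0.133) and rho -0.451 (permutation p = 0.0713, adjusted 0.107), with r of -0.170 without the 2 farthest libraries and -0.482 within lane 5 (n = 7). Per 1000 normalized CPM of adipocyte markers, the median Adrb3 level was 37.1 in iBAT (13.9 to 83.3), 49.7 in pgWAT (32.4 to 100.3) and 81.3 in psWAT (29.8 to 148.8), so the depots overlapped on this scale and psWAT, not pgWAT, had the highest median.

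**Figure D4:**
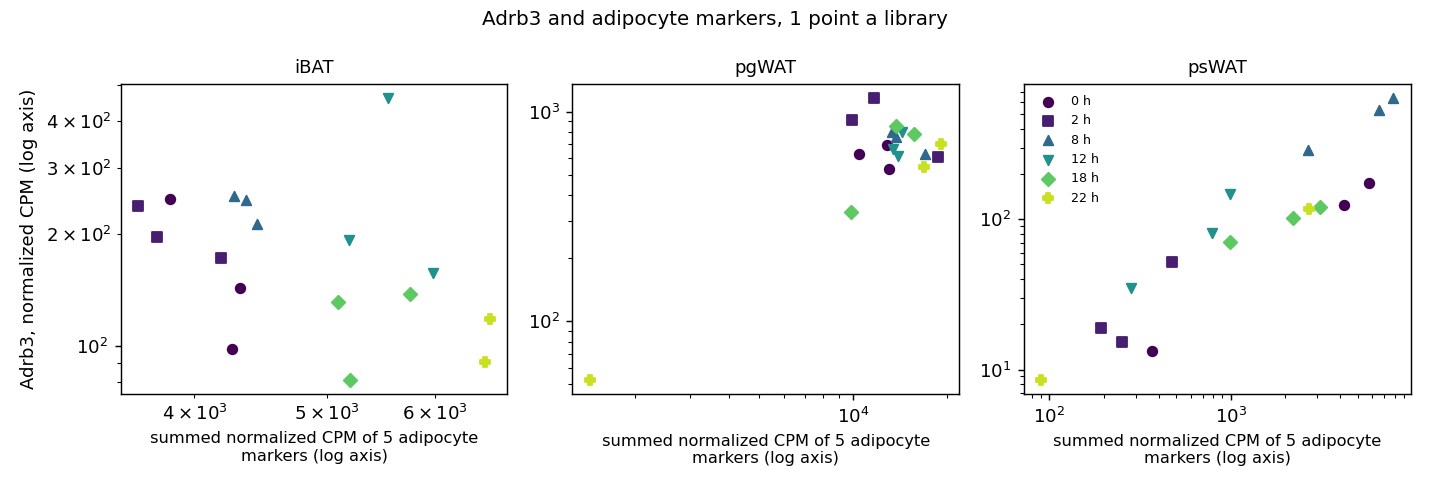
Adrb3 against the summed level of 5 adipocyte markers, both in normalized CPM on log axes, for each library of the 3 fat depots, with marker shapes for fasting times. The psWAT libraries lie along a line (r = 0.925), and 1 pgWAT library at 52.5 lies apart from the rest.

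Of the genes that make or move the ligand, Dbh, Slc6a2 and Slc18a2 had their highest means in BST, Th in OB and Ddc in LIV. Dbh, which turns dopamine into noradrenaline, had a mean of 20.3 normalized CPM in BST, at most 1.17 in the other organs and 0 counts in 17 of 17 iBAT libraries. The noradrenaline transporter Slc6a2 had 24.1 in BST and 1.73 in CBL, and the vesicular transporter Slc18a2 44.2 in BST and 32.8 in STM. Th, which makes the dopamine precursor, had 216 in OB, 15.8 in BRN and 14.8 in BST. Ddc had 95.0 in LIV and 41.3 in BST, and Pnmt, which makes adrenaline, at most 0.570, in pgWAT, where 1 library had 8.88, then 0.464 in BRN.

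The wider pathway was read from 52 genes in 8 lists, for late against early. In iBAT, 1 of the 42 tested was called higher and 15 lower, where 36% of all genes were called, 2407 of 14529 higher and 2823 lower. The median log2 fold change was -0.42 against -0.08 over all genes. Lower were 3 of 7 adenylyl cyclases, 5 of 7 phospholipase C and IP3 receptor genes, 2 of 7 G protein genes, 1 of 6 subunits of protein kinase A and 1 of 5 phosphodiesterases. Of 7 desensitisation genes 1 was higher and 3 lower, 0 of 3 ligand breakdown genes were called by edgeR (0 unadjusted), and no ligand synthesis gene passed the filter. Rgs2, which limits Gq signalling, rose from 231.04 to 476 (log2 fold change 1.07, adjusted p = 0.00949), and the receptor kinase Grk3 (-1.14, 0.00156), the IP3 receptor Itpr1 (-0.90, 0.00263) and Gnai3 (-0.80, 0.00384) fell. The adipocyte, endothelial and red cell sums moved over the same times in iBAT, as given above. Some late libraries were in lanes that hold no early one, and lane as a term could not be fitted. The part of markers and lanes in these pathway calls was not tested.

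In STM, 9 of 48 pathway genes were called higher and 5 lower, where 22.7% of all genes were called. With lane as a term edgeR called no gene in STM late against early, so all STM calls that follow end with it. Adcy4 rose from 6.61 to 13.9 (log2 fold change 1.11, adjusted p = 0.00164) and Grk6 fell from 75.5 to 41.6 (-0.84, 0.00294), both with ranges that did not overlap, and Rgs2 (0.87, 0.00683) and Arrb2 (0.89, 0.00848) rose while Ddc (-0.84, 0.0230) and Pde3b (-0.52, 0.0401) fell. In LIV, those called lower included Gnai3 (-0.35, 0.00773), Maob (-0.37, 0.0115) and Gna11 (-0.29, 0.0373), where 15% of all genes were called, and 0.0570% with lane as a term. In BRN, 1 of 47 was higher, Arrb2 (0.56, adjusted p = 0.0470), and 4 lower, among them Itpr1 (-0.46, 0.0146), which fell from 343 to 233.1 with no overlap, Grk3 (-0.64, 0.0467) and Adcy6 (-0.65, 0.0469), where 7.43% of all genes were called. No gene of any kind was called in BRN by edgeR without the libraries nearer to another organ or with lane as a term. In OB, 2 of 47 were lower, Adcy3 (-0.21, 0.0376) and Adcy6 (-0.23, 0.0388), where 4.87% of all genes were called and, with lane as a term, none by edgeR. In CBL, sequenced in 1 lane, 2 of 47 were higher, Pde4b (0.28, 0.0182) and Itpr1 (0.23, 0.0381), where 2.48% of all genes were called. The fed CBL libraries were deeper than all fasted ones, as given above, and the part of depth in these calls was not tested. By edgeR, 0 of 49 in BST, 0 of 48 in pgWAT and 0 of 45 in psWAT were called (6, 14 and 0 at an unadjusted p under 0.05), where 0.0775%, 0.00609% and 0% of all genes were.

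Over all libraries used some pairs of receptors had like patterns, where points share organs and mice and the values of log2 normalized CPM plus 1 are descriptive. Adra2a and Adra2c had r of 0.806, Adra1d and Adrb1 of 0.803, Adra1a and Adrb1 of 0.733 and Adra1a and Adra1d of 0.674, and Adra2a and Adrb3 had -0.786. Adra1d and Adra2c had 0.565, and Adra1b and Adra2b had 0.507. The genes most like Adra1b were Upp2 (r = 0.944), Sec14l2 (0.943) and Itih3 (0.940), and those most like Adrb3 were Steap4 (0.966), Mrap (0.956) and Fcgrt (0.953). Within LIV the same 3 genes had -0.530, -0.010 and -0.719 with Adrb3 and within iBAT 0.036, -0.450 and -0.176. Within psWAT they had 0.842, 0.877 and 0.881, and within pgWAT, with 22 h replicate 2 included, 0.927, 0.880 and 0.853. These pgWAT values are not given without that library. The r of Adrb3 with the summed adipocyte markers in pgWAT was 0.864 with it and 0.0209 without it. Within LIV, Upp2, Sec14l2 and Itih3 had -0.679, 0.699 and 0.152 with Adra1b. The genes most like Adra1a were Pdhx (0.868), Ddhd2 (0.867) and Sdha (0.857), for Adra1d Rapgef3 (0.892), A830018L16Rik (0.891) and Gm42847 (0.858), and for Adrb1 Snx10 (0.814), Ptdss2 (0.813) and Cnnm2 (0.805). Within the organ of the highest mean, r in this order was 0.228, 0.355 and 0.573 for Adra1a in iBAT. It was -0.078, 0.382 and 0.248 for Adra1d in OB, and -0.196, -0.325 and -0.284 for Adrb1 in iBAT. The genes most like Adra2a were Armcx2 (0.953), Arhgef4 (0.951) and Pitpna (0.949), for Adra2b Lhpp (0.767), Echdc2 (0.748) and Gnmt (0.746), and for Adra2c Pantr1 (0.967), Kif17 (0.960) and Lingo1 (0.958). In the same order, r was 0.267, 0.387 and 0.410 for Adra2a within BST. It was -0.325, 0.161 and 0.301 for Adra2b within LIV, and 0.779, -0.161 and -0.623 for Adra2c within BRN.

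Promoter sequence from RefSeq (GRCm38.p6) was found for 5 of the 8 receptors: Adra1b, Adra2a, Adra2b, Adra2c and Adrb1. Both windows of Adra1b are shown, since it had the highest fold of any receptor in LIV, as 250 bases before each start on the minus strand. The gene counts do not separate the starts. Capitals mark matches on either strand to CCAAT (held by 33.9% of 32851 promoter windows of this length), to TATAAA (12.4%), to TGACGTCA (1.55%), to CACGTG (6.02%) and to GGGCGG (32.7%). The window at chr11:43836490-43836739 has 1 match to GGGCGG and a GC content of 72.8%, and that at chr11:43901238-43901487 has 2 matches to CCAAT and 41.6% GC, against a median of 52.4%. A match is a description of letters only.
Adra1b chr11:43836490-43836739: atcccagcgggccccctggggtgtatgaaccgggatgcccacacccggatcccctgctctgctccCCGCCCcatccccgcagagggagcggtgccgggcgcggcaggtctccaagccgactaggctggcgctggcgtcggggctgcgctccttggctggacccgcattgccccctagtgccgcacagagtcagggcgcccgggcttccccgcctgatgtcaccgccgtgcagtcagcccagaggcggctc
Adra1b chr11:43901238-43901487: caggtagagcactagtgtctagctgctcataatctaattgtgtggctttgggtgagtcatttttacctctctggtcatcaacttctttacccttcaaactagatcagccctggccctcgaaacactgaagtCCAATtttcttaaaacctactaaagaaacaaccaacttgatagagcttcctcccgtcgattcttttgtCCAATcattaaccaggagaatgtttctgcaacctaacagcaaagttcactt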

How the data were processed

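The values are raw counts per gene, deposited by the authors, who aligned paired reads with TopHat2 2.1.1 to GRCm38.p5, kept unique hits and counted exons with HTSeq 0.9.1. The strand setting of the counting is not given. Gene positions and lengths come from a later Gencode release of the same build. The 8 receptors and all gene lists were chosen with earlier results of these data known.

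Analyses used R 4.3.3, edgeR 4.0.16, limma 3.58.1, DESeq2 1.42.0 and Python 3.11.15 with pandas 2.3.3, scipy 1.17.1 and matplotlib 3.10.9. For tests over time, genes with at least 10 counts at the median library size in at least 3 libraries of the organ were kept, and for organ comparisons the 21600 genes kept in any organ. TMM factors over all organs were 0.547 to 1.41. Differences were tested by edgeR's quasi-likelihood test, two-sided, with Benjamini-Hochberg adjustment over all genes tested and a threshold of 0.05. Organ comparisons adjusted for time and joined all organs in a single fit. Organs of a mouse share it, so they were repeated paired by animal. Permutation tests were two-sided.

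Genes named are the 8 receptors in every organ, from the pathway lists up to 3 an organ with the smallest adjusted p in each direction of late against early among those called, and for each receptor the 3 genes with the highest Pearson r of log2 (normalized CPM + 1) over all retained libraries. A result for 1 gene that this rule names in the pathway lists is not reported here.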

Additional observations from a re-analysis of the deposited data

How the results depend on the processing

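The count of receptors called over time changed with the setting in 5 organs, and the cause was not tested. In BRN late against early it was 0 in place of 1 with RLE size factors, all libraries, without the libraries nearer to another organ, the replicate block, the lane covariate and an absolute log2 fold change over 1, and 2 with no filter on low counts. In iBAT late against early it was 0 in place of 1 with RLE size factors, no filter, all libraries, a slope on hours and the fold threshold. With 18 and 22 h against 0 h the iBAT count was 1, but Adra1d in place of Adrb3. In the iBAT joint test it was 2 in place of 1 with DESeq2 and the replicate block. In LIV the joint count was 1, Adrb3, with the replicate block and 0 with the lane covariate in place of 2, and 3, with Adra2b, by DESeq2 and with no filter, and the late count 0 in place of 1 with the lane covariate, a slope on hours and the fold threshold, and 1 but Adra1a in place of Adrb3 with 18 and 22 h against 0 h. The OB joint count was 1 with no filter and the psWAT joint count 1 with DESeq2, in place of 0.

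Leaving out 1 library at a time gave counts of 0 to 1 in the BRN joint test, 0 to 2 in BRN late against early, 0 to 1 in STM late against early, 0 to 2 in the LIV joint test, 0 to 1 in LIV late against early, 1 to 2 in the iBAT joint test and 0 to 1 in iBAT late against early. Adra1d in the iBAT joint test was called in 5 of 5 settings and without any 1 of the 17 libraries (0.00165 to 0.0332). No call reversed its direction.

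Replicate numbers at different times are different mice, and the profiles of a shared number did not correlate above 0.1 for all 3 numbers in any organ (0.291, 0.00613 and 0.218 in iBAT). Pairing by animal changed no other organ comparison than those named. Without TMM scaling 15 of the 72 levels moved by more than their SD. With all libraries, or without those nearer to another organ, 0 did. The lane covariate could be fitted in BRN, LIV, OB, STM, pgWAT and psWAT only. With 3 mice at a time, low counts limit Adra2b, Adra2c and Adra1d outside the organs where they are high.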
